A study of Mus musculus with 7 samples.

Results

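The interleukin 12 family was measured through the 8 genes of its cytokine subunits and receptor chains: Il12a, Il12b, Il23a, Il27, Ebi3, Il12rb1, Il12rb2 and Il27ra. They were taken by matching Ensembl gene IDs to these symbols, and all 8 are among the 24084 genes listed in at least 1 library. The data are RNA-seq libraries of macrophages sorted for F4/80, a macrophage surface protein, from subcutaneous tumors of Lewis lung carcinoma (LLC), a transplantable mouse lung carcinoma line. In 3 libraries the mice carried LysM-Cre and Dicer1 deletion (LysM-Cre; Dicer-/-), with the floxed allele and Cre both homozygous. In 4 control libraries the mice carried the same LysM-Cre with intact Dicer1 (LysM-Cre; Dicer+/+), so Cre is shared by both groups. LysM-Cre expresses the recombinase from the lysozyme M locus, which is active in myeloid cells and not in macrophages alone. The labels state no age. They leave unsaid whether different libraries are different mice, and p-values here speak of the spread among libraries, part of which may be technical. Dicer1 encodes the enzyme that cuts precursor hairpins into mature microRNAs (miRNAs).

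The cytokines of this family are pairs of an alpha chain and a beta chain. Il12a with Il12b makes IL-12, Il23a with the same Il12b makes IL-23, and Il27 with Ebi3 makes IL-27. Il12rb1 is shared by the IL-12 receptor, where it pairs with Il12rb2, and by the IL-23 receptor, where it pairs with Il23r, while Il27ra pairs with Il6st to bind IL-27. Activated macrophages and dendritic cells are known sources of the cytokines, and T and NK cells are their best known targets.

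Il12rb1, the shared receptor chain, and Il27, the alpha chain of IL-27, were the members whose Dicer1-deleted libraries all lay above all control libraries. Il12rb1 averaged 5.22 ± 4.83 CPM (unique read counts per 1e+06, with TMM scaling; SD, n = 3) against 0.146 ± 0.123 (n = 4). Il27 averaged 5.57 ± 3.25 CPM against 1.10 ± 0.401. Neither difference passed the edgeR quasi-likelihood test after Benjamini-Hochberg adjustment over 16226 genes, and both passed DESeq2. The groups of the other 6 members overlapped, and of those 6 the 5 that could be tested passed neither test. Gene positions below are those of GENCODE M21 on GRCm38, looked up by Ensembl ID.

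The libraries held 42974524 to 51152370 uniquely mapped reads. Dicer1 itself stood at 7.85, 6.86 and 7.86 CPM in the deleted libraries and at 15.7, 15.8, 18.6 and 17.1 CPM in the controls, with no overlap. Its log2 fold change, given throughout as deleted over control, was -1.16 ± 0.23 (SE), with an adjusted p of 0.150 in edgeR and 4.96e-05 in DESeq2. Reads outside the deleted part of the gene can still be counted. Across all tested genes edgeR called 4 at an adjusted p under 0.05, which is 0.0247% of them, and DESeq2 called 405 of 16215, or 2.5%. Dicer1-deleted replicate 2 stood apart: its deposited RPKM values (reads per kilobase of gene, scaled to library depth) summed to 909301, against 582057 to 737295 in the other 6 libraries, and it held the lowest level of Adgre1, the gene of F4/80, at 233 CPM. The other 6 libraries had 418 to 1072 CPM of Adgre1. Other macrophage markers were mixed in Dicer1-deleted replicate 2. Csf1r, Itgam and Mrc1 were also the lowest of all libraries there, while Cd68, Fcgr1 and C1qa were the highest. Its summed macrophage markers, at 17906 CPM, were the highest of the deleted group. The sample titles also carry a code, L4 or L5, whose meaning they do not state. L5 marks Dicer1-deleted replicate 1 and control replicates 1, 3 and 4, and L4 marks the other 3 libraries. In these bulk libraries, fewer cells of a type and less RNA per cell cannot be told apart.

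Of the 8 members 7 passed the filter on low counts and were tested, and 5 of those 7 had a positive log2 fold change, with a median of 0.54. Over all tested genes 8529 of 16226 were positive and the median was 0.03. edgeR called 0 of the 7 members at an adjusted p under 0.05. At an unadjusted p under 0.05 it passed 2, Il12rb1 and Il27, beside 8.01% of all tested genes in either direction and 3.88% higher. DESeq2 called the same 2, both higher, beside 0.925% of all genes called higher. The deleted libraries lay wholly above the controls for 2 members and wholly below for 0, beside 3.86% and 5.44% of all tested genes, or 9.31% in either direction.

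**Figure D1:**
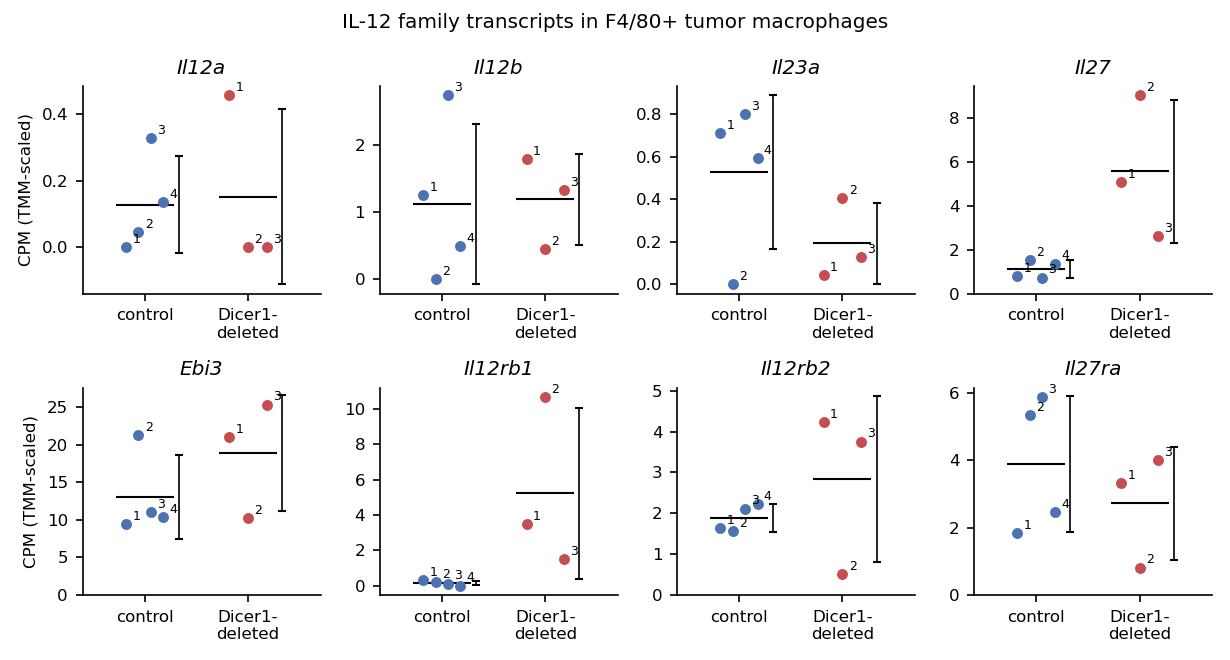
CPM of each of the 8 members in every library, on a linear axis scaled for each gene, with 1 numbered point per library, a line at each group mean and error bars of 1 SD. For Il12rb1 and Il27 all 3 Dicer1-deleted libraries lie above all 4 controls; in the other panels the groups overlap.

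Il12b (ENSMUSG00000004296, chr11:44400063-44414033, plus strand), the beta chain of both IL-12 and IL-23, was found at 1.79, 0.457 and 1.32 CPM in the deleted libraries and at 1.26, 0, 2.73 and 0.501 CPM in the controls. Control replicate 2 had no Il12b read, which allows a level of up to 0.135 CPM (3 read pairs, or 6 counts), and control replicate 3 had the highest level of all 7. The groups overlapped along their whole range, and the log2 fold change was 0.08 ± 1.12 (edgeR adjusted p = 0.999). With a standard error of this size, a change of Il12b was not detectable at this depth and spread.

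Il12a (ENSMUSG00000027776, chr3:68690644-68698547, plus strand), which completes IL-12, was close to the counting limit. It had 22, 0 and 0 reads in the deleted libraries and 0, 2, 18 and 6 in the controls. The highest library was Dicer1-deleted replicate 1, at 0.457 CPM, and the other 2 deleted libraries allow up to 0.152 and 0.128 CPM. Il12a did not pass the filter on low counts and has no test.

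Il23a (ENSMUSG00000025383, chr10:128296139-128298752, minus strand), the alpha chain of IL-23, was found at 0.0415, 0.407 and 0.128 CPM in the deleted libraries and at 0.713, 0, 0.802 and 0.593 CPM in the controls. The controls other than replicate 2 were above every deleted library, and replicate 2 was at 0, below them all. The log2 fold change was -1.46 ± 1.25 (edgeR adjusted p = 0.966; DESeq2, 0.946). Control replicate 2 was thus the library with no read of either IL-23 subunit.

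Il27 (ENSMUSG00000044701, chr7:126589010-126594941, minus strand), the alpha chain of IL-27, was found at 5.06, 9.04 and 2.60 CPM in the deleted libraries, which are 244, 356 and 122 reads. The controls were at 0.797, 1.53, 0.729 and 1.37 CPM, which are 38, 68, 40 and 60 reads. The lowest deleted library was above the highest control, and the spread among the deleted libraries was wider than that among the controls. The log2 fold change was 2.33 ± 0.49, with an edgeR p of 8.58e-04 (adjusted p = 0.156). DESeq2 gave 2.37 ± 0.53 (adjusted p = 0.00115). When Dicer1-deleted replicate 2, the highest library, was left out, the DESeq2 value was 1.80 ± 0.55 with an adjusted p of 0.0532, which misses the threshold of 0.05. Within the L5 libraries, with 1 deleted library, the edgeR log2 fold change was 2.36 ± 0.57 (adjusted p = 0.453). Within the L4 libraries, with 1 control, it was 1.93 ± 1.09 (adjusted p = 0.99995). In both the lone library is assumed to vary like the others. Of the 1021 exon bases of Il27, 103 overlap exons of Apobr on the other strand, and the libraries do not keep strand. Apobr stood at 26.5 ± 3.36 CPM in the deleted and 27.3 ± 4.27 CPM in the control libraries.

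Ebi3 (ENSMUSG00000003206, chr17:55952640-55957022, plus strand), which pairs with Il27, was the most abundant member. It was found at 21.0, 10.3 and 25.3 CPM in the deleted libraries and at 9.48, 21.3, 10.97 and 10.4 CPM in the controls. Dicer1-deleted replicate 2, the library with the most Il27, had the least Ebi3 of its group, and control replicates 2, 3 and 4 lay within the deleted range. The log2 fold change was 0.54 ± 0.39 (edgeR adjusted p = 0.927; DESeq2, 0.884). The antisense gene Gm16712 covers 270 of the 1154 exon bases of Ebi3.

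Il12rb1 (ENSMUSG00000000791, chr8:70808449-70821424, plus strand) showed the largest fold change among the members. The deleted libraries were at 3.49, 10.7 and 1.49 CPM, which are 168, 420 and 70 reads. The controls were at 0.293, 0.180, 0.109 and 0 CPM, which are 14, 8, 6 and 0 reads. Every deleted library was above every control, and the deleted libraries also differed widely among themselves, with replicate 2 the highest and replicate 3 the lowest. The log2 fold change was 5.13 ± 0.94, with an edgeR p of 3.53e-04 (adjusted p = 0.116), and 5.21 ± 0.88 in DESeq2 (adjusted p = 2.19e-06). DESeq2 on the 6 libraries other than Dicer1-deleted replicate 2 gave 4.10 ± 0.95 (adjusted p = 0.00204). With the same lone libraries, the edgeR value was 4.63 ± 1.14 within L5 (adjusted p = 0.453) and 5.05 ± 1.35 within L4 (adjusted p = 0.108). An exact permutation test of log2(CPM + 0.1) over all 35 splits was made two-sided by doubling the one-sided p. Il12rb1 and Il27 both reached 0.0571, the smallest p that this doubled test can give.

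Il12rb2 (ENSMUSG00000018341, chr6:67291318-67376188, minus strand), the IL-12 chain that pairs with Il12rb1, was found at 4.23, 0.508 and 3.76 CPM in the deleted libraries and at 1.64, 1.57, 2.11 and 2.23 CPM in the controls. Dicer1-deleted replicates 1 and 3 were above all controls and replicate 2, the highest library for Il12rb1, was below them all. The log2 fold change was 0.59 ± 0.60 (edgeR adjusted p = 0.996), and 1.07 ± 0.33 without replicate 2 (adjusted p = 0.371). Exons of Serbp1 on the other strand share 1519 of the 3794 exon bases of Il12rb2, so part of these reads cannot be assigned to either gene. Serbp1 was far more abundant, at 114 ± 16.2 CPM in the deleted and 99.1 ± 12.8 CPM in the control libraries.

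Il27ra (ENSMUSG00000005465, chr8:84030294-84042589, minus strand), the specific chain of the IL-27 receptor, was found at 3.32, 0.813 and 4.01 CPM in the deleted libraries and at 1.84, 5.34, 5.87 and 2.46 CPM in the controls. Replicate 2 was again the lowest deleted library, and the controls spanned a pair at lower and a pair at higher levels. The log2 fold change was -0.51 ± 0.60 (edgeR adjusted p = 0.996). The receptor chains thus showed no common order over the libraries: replicate 2 of the deleted group was highest for Il12rb1 and lowest for Il12rb2 and Il27ra.

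**Figure D2:**
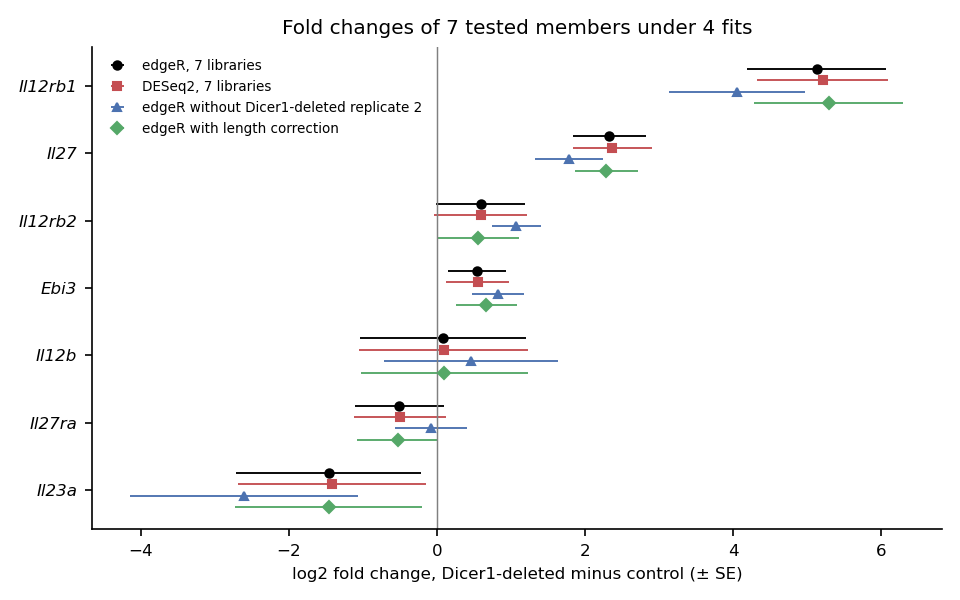
Log2 fold change, Dicer1-deleted over control, of the 7 tested members under 4 fits (edgeR, DESeq2, edgeR without Dicer1-deleted replicate 2, and edgeR with a correction for transcript length), with bars of 1 SE. In edgeR on all libraries Il12rb1 at 5.13 and Il27 at 2.33 lie farthest from 0, and Il23a at -1.46 and Il27ra at -0.51 are negative.

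Some markers of other cell types also differed between the groups. Over all tested genes, 3.86% were separated higher in the deleted libraries and 5.44% lower. Summed T cell markers were at 11.4 to 18.1 CPM in the deleted and 7.98 to 11.2 CPM in the control libraries, and 2 of the 12 tested had separated groups, both higher. Summed NK cell markers were at 26.1 to 64.5 against 3.37 to 21.1 CPM, with 2 of 6 separated. The largest entry of the NK cell sum was Klrk1, an activating receptor that T cells also carry, at 50.6, 52.5 and 20.7 CPM in the deleted and 1.57 to 19.0 CPM in the control libraries. The other separated gene of that list was Nkg7, a cytotoxic granule protein, at 2.64 to 6.02 against 0.673 to 1.73 CPM. The separated T cell genes were Cd3g, a chain of the T cell receptor complex, at 1.29 to 1.66 against 0.0898 to 0.729 CPM, and Trbc2, a receptor constant region, at 1.07 to 1.58 against 0.180 to 0.593 CPM. In Dicer1-deleted replicate 3, Cd3g and Trbc2 were at CPM like that of Il12rb1 (1.49). In replicates 1 and 2 both were below Il12rb1, which stood at 3.49 and 10.7 CPM. Klrk1 was above Il12rb1 in all 3 deleted libraries. Nkg7, at 6.02, 2.64 and 3.20 CPM, was above Il12rb1 in replicates 1 and 3 and below it in replicate 2. CPM is not scaled for gene length. Cd3e, another chain of the T cell receptor complex, overlapped, at 0.291 to 0.661 CPM in the deleted and 0.168 to 0.404 in the control libraries. Ncr1, the NK cell receptor NKp46, was at 0 in all but Dicer1-deleted replicate 1 (0.332 CPM) and control replicate 1 (0.126 CPM). Summed B cell markers were at 144 to 190 against 41.4 to 82.1 CPM, with 3 of 5 separated. Summed neutrophil markers were at 156 to 233 against 63.4 to 139 CPM, with 2 of 5 separated, while Ly6g was at 0 in all but Dicer1-deleted replicate 2 (0.102 CPM). The dendritic cell sum overlapped, at 9.25 to 15.9 against 12.3 to 171 CPM, and of its 10 tested genes 2 were separated higher and 3 lower. Within it Xcr1, a chemokine receptor of cross-presenting dendritic cells, was at 5.27, 2.64 and 5.51 CPM in the deleted and 0.880, 0.539, 0.474 and 1.504 CPM in the control libraries, with no overlap. The other gene separated higher was Clec9a, at 0.789 to 1.22 against 0.0449 to 0.503 CPM. Separated lower were Ccr7, at 0.427 to 1.47 against 1.62 to 25.2 CPM, and Ccl22, at 0.896 to 2.82 against 2.92 to 30.1 CPM. Cacnb3 was also lower, at 0 to 0.0508 against 0.293 to 0.808 CPM. The macrophage sum was at 11642 to 17906 against 10010 to 18542 CPM, and the epithelial sum at 5.79 to 9.09 against 2.11 to 14.1 CPM, both overlapping. Lyz2, the gene that carries Cre, was separated lower, at 53.0, 67.2 and 50.7 against 134, 212, 107 and 103 CPM (edgeR adjusted p = 0.235; DESeq2, 0.0144). Epcam, an epithelial marker, was at 0 in all but Dicer1-deleted replicate 1 (0.083 CPM) and control replicate 1 (0.126 CPM). The part of other cell types in the levels of Il12rb1 and Il27 was not tested.

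Levels of different genes were compared as deposited RPKM, which divides by gene length. In the controls Ebi3 had the highest median, 9.32 RPKM, and exceeded the next gene, Il27ra (1.40 RPKM), in 4 of 4 libraries. Il27ra exceeded Il27 (1.05 RPKM) in 2 of 4, and Il27 exceeded Il12rb2 (0.50 RPKM) in 4 of 4. Il12rb2, Il23a (0.475 RPKM) and Il12b (0.44 RPKM) could not be put in an order, since each exceeded the next in 2 and 1 of 4 libraries. Il12a and Il12rb1 were last, at 0.065 and 0.05 RPKM. In the deleted libraries the median order was Ebi3 at 17.99, Il27 at 4.96, Il27ra at 1.24, Il12rb1 at 1.21, Il12rb2 at 1.01, Il12b at 0.69, Il23a at 0.10 and Il12a at 0 RPKM. Il27 exceeded Il27ra in all 3 deleted libraries, and Ebi3 exceeded Il27 in replicates 1 and 3 and about equalled it in replicate 2. Il27ra ranged from 0.25 to 1.54, Il12rb1 from 0.53 to 3.11 and Il12rb2 from 0.11 to 1.12 RPKM, so their order did not stand beyond their spread. By median, Il12rb1 ranked 8 of 8 in the controls, though Il12a exceeded it in only 2 of 4 libraries. In the deleted libraries its median ranked 4 of 8, a place that likewise did not stand beyond the spread.

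Of the IL-27 chains, Ebi3 was in excess of Il27 in all libraries except Dicer1-deleted replicate 2. The ratio of Il27 to Ebi3 RPKM was 0.276, 1.01 and 0.118 in the deleted libraries and 0.0965, 0.0824, 0.0765 and 0.151 in the controls. The groups overlapped, because replicate 3 of the deleted group, at 0.118, lay below control replicate 4. The ratio of Il12rb1 to Il12rb2 RPKM was 1.08, 28.3 and 0.525 in the deleted libraries and 0.238, 0.154, 0.069 and 0 in the controls. All deleted libraries lay above all controls, and the value of replicate 2 rested on 20 reads of Il12rb2.

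**Figure D3:**
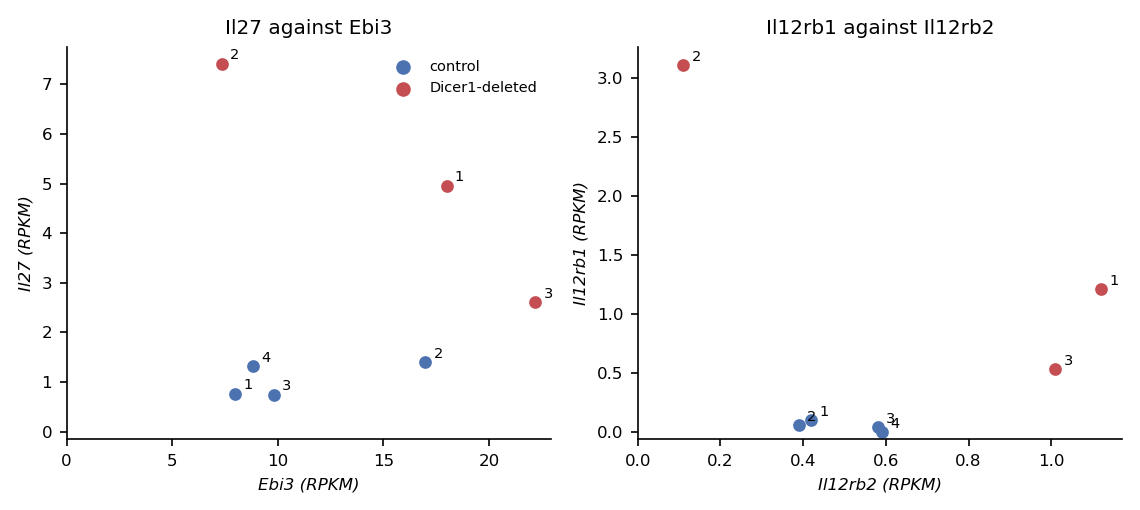
RPKM of paired chains in each library, Il27 against Ebi3 and Il12rb1 against Il12rb2. Dicer1-deleted replicate 2 lies apart in both, with Il27 level with Ebi3 (ratio 1.01) and Il12rb1 above Il12rb2 (ratio 28.3).

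Because the Dicer1 enzyme makes mature miRNAs, the longest annotated 3′ UTR of each member was searched on its own strand. The search was for the 7 bases that pair with the seed (bases 2 to 8) of 20 miRNAs. Il12rb1 held 2 such sites, for miR-125b-5p and miR-26a-5p, and each of these seeds also matched another member. The miRNAs are shown with the seed in capitals, and the sites on the sense strand of each gene with the matching bases in capitals. The miRNA sequences are from RefSeq (GRCm38.p6), and the UTRs from GENCODE M21 on GRCm38.
miR-125b-5p: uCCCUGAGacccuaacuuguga
Il12rb1 site for miR-125b-5p: tgcttggtatcCTCAGGGcaaggctggac
Il23a site for miR-125b-5p: ttcctgggtggCTCAGGGaaatgtgcaga
miR-26a-5p: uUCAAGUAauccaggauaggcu
Il12rb1 site for miR-26a-5p: gggagcctctgTACTTGAcgatctttgga
Ebi3 site for miR-26a-5p: ctgatgtcgtcTACTTGAgggtggcaggg

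The matching bases of Il12rb1 lie at chr8:70821161-70821167 and chr8:70820801-70820807 on the plus strand, in a 3′ UTR of 666 bases. Those of Il23a lie at chr10:128296413-128296419 on the minus strand, and those of Ebi3 at chr17:55956817-55956823 on the plus strand. The miR-125b-5p match CTCAGGG occurs in 15.3% of the 12131 UTRs of tested genes that were searched, and the miR-26a-5p match TACTTGA in 11.4%. Of the genes matching miR-125b-5p, Il12rb1 and Il23a had log2 fold changes of 5.13 ± 0.94 and -1.46 ± 1.25. Of those matching miR-26a-5p, Il12rb1 and Ebi3 had 5.13 ± 0.94 and 0.54 ± 0.39. Il27, the other member with separated groups, had no match for any of the 20 miRNAs in its 285 bases of 3′ UTR, and neither had Il12b or Il27ra. Il12a, Il12rb2 and Il23a held further matches, to let-7a and miR-21a, to miR-142a-3p, miR-19a and miR-30a, and to miR-223 and miR-27a. The libraries do not measure miRNAs, and a match is a stretch of letters, not a shown site of action.

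The genes whose profile over the 7 libraries was closest to that of Il12rb1 were Asb2, a subunit of a ubiquitin ligase, Fam151b and Gabbr2, a chain of the GABA-B receptor. Likeness was the root mean square difference of centred log2 CPM over the 10762 genes that average at least 1 CPM, and these 3 had values of 0.787, 0.993 and 1.004. The same measure of Il12rb1 around its own mean was 2.84. Asb2 was at 2.53, 7.98 and 1.41 CPM in the deleted and 0.0419, 0.224, 0.0729 and 0 CPM in the control libraries. Fam151b was at 8.93, 14.0 and 4.74 against 0.377, 0.718, 0.365 and 0.228 CPM, and was 1 of the 4 genes that edgeR called. For Ebi3 the closest were Nfxl1, Celf4 and Aak1, at 0.197, 0.223 and 0.247, against 0.567 for Ebi3 around its own mean.

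Of 10 listed genes that carry the signal of these receptors or restrain it, 9 were tested and 8 were positive, with a median log2 fold change of 0.31. Neither edgeR nor DESeq2 called any of them. This list and those below were chosen with earlier results of these data known, so their counts and medians are no independent support. One of the 9 tested, Socs1, an inhibitor of JAK kinases, passed an unadjusted edgeR p under 0.05, beside 8.01% of all tested genes. It stood at 0.830, 2.54 and 0.171 CPM in the deleted and 0.210, 0.0898, 0.219 and 0.319 CPM in the control libraries, and the groups overlapped (log2 fold change 2.48 ± 0.88; edgeR adjusted p = 0.448). Il23r, the IL-23 chain, was not listed in any library. Il6st, the IL-27 co-receptor, had a log2 fold change of 0.30, the kinases Jak2 and Tyk2 had -0.01 and 0.11, and Stat4, which IL-12 activates, had 0.35 ± 0.53. Stat3, which IL-23 and IL-27 activate, was the only one with separated groups, at 87.1, 109 and 93.4 against 74.0, 79.6, 69.5 and 87.0 CPM. Its log2 fold change was 0.31 ± 0.23 (edgeR adjusted p = 0.921). Over all tested genes 9.31% had separated groups, which is near the 1 of 9 in this list.

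Among 18 genes known to control the transcription of these cytokines, all 18 were tested and all 18 had a positive log2 fold change, with a median of 0.37 and the lowest, Nfkb1, at 0.00. edgeR called 0, with 4 at an unadjusted p under 0.05, and DESeq2 called 3 higher and 0 lower. Over all tested genes 8.01% passed that unadjusted p, and DESeq2 called 0.925% higher. The share of all genes separated higher was 3.86%. The count of positive values was 16 of 18 with no scaling by TMM factors and 13 of 18 without Dicer1-deleted replicate 2. Because the list was chosen with earlier results known, this count describes the listed genes only. Irf8, a transcription factor needed for Il12b expression, was at 55.5, 109 and 80.3 CPM in the deleted and 30.7, 42.3, 24.8 and 37.2 CPM in the control libraries. Its log2 fold change was 1.27 ± 0.30 (edgeR adjusted p = 0.207; DESeq2, 0.0108). Batf3, a partner of Irf8 in dendritic cells, was at 1.83, 4.73 and 2.43 against 0.545, 0.583, 1.31 and 0.729 CPM, with 1.91 ± 0.50 (edgeR adjusted p = 0.254; DESeq2, 0.0191). Tlr9, the receptor for unmethylated DNA, was at 6.64, 4.37 and 8.32 against 1.30, 1.75, 1.90 and 0.775 CPM, with 2.17 ± 0.40 (edgeR adjusted p = 0.116; DESeq2, 6.65e-05). In these 3 genes every deleted library was above every control. Without Dicer1-deleted replicate 2, DESeq2 still called Tlr9 (adjusted p = 8.46e-05) but not Irf8 (0.0759) or Batf3 (0.297). Il10, which restrains Il12b, had 0.98 ± 0.41.

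Of 15 genes that act downstream of or beside these cytokines, 10 were tested and 6 of those were positive, with a median log2 fold change of 0.58. edgeR called 0, with 4 at an unadjusted p under 0.05, beside 8.01% of all tested genes. DESeq2 called 2 higher, both of them interferon-induced chemokines, beside 0.925% of all genes. Cxcl10 was at 483, 837 and 406 CPM in the deleted and 231, 220.2, 187 and 217 CPM in the control libraries, with 1.43 ± 0.30 (edgeR adjusted p = 0.162; DESeq2, 0.00116). Cxcl9 was at 311, 510 and 193 against 101, 77.2, 8.50 and 111 CPM, with 2.18 ± 0.70 (edgeR adjusted p = 0.368; DESeq2, 0.0471). Without Dicer1-deleted replicate 2, DESeq2 called Cxcl10 (adjusted p = 0.00184) but not Cxcl9 (0.559). Ifngr2, a chain of the interferon gamma receptor, was at 97.0, 103 and 107 against 62.3, 67.1, 74.3 and 67.4 CPM, with 0.60 ± 0.22 (edgeR adjusted p = 0.462; DESeq2, 0.0526). Ifng, the cytokine that IL-12 induces in T and NK cells, was found at 1.29, 0.152 and 0.427 CPM against 0, 0.0449, 0 and 0.365 CPM, and its groups overlapped. Tbx21, Il17a, Il17f and Il22, which mark the T cell responses that IL-12 and IL-23 drive, were among the genes unlisted or too low to be tested.

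**Figure D4:**
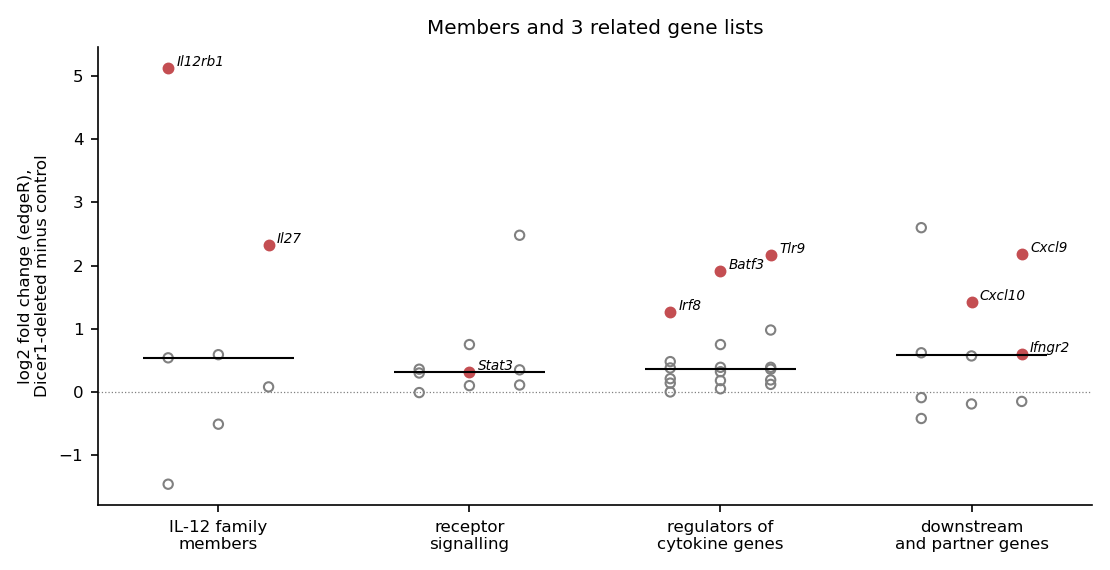
Log2 fold change, Dicer1-deleted over control, of each tested gene in the member list and in the 3 pathway lists, with 1 point per gene, filled and named where the groups did not overlap, and a bar at each list's median. The medians are 0.54 for the members, 0.31 for receptor signalling, 0.37 for regulators and 0.58 for downstream and partner genes, beside 0.03 for all genes. The lists were chosen with earlier results of these data known.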

How the data were processed

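RNA-seq was made from 7 libraries, amplified from little RNA and without strand information, per the labels' protocols. Reads were aligned with Bowtie2, per the submitters' processing notes; for the build, the annotation and the read counter, the name is not given in the sources used here. The deposited tables hold unique read counts per gene, counts of multiply mapped reads (estimated counts, not used in the main fit) and RPKM, all computed by the authors, per the file headers. Genes that a library does not list were set to 0 (31124 values), and every deposited unique count is even, so both mates of a pair appear to be counted.

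Symbols were taken from GENCODE M21; 21813 of 24084 IDs matched. Unique counts were tested with edgeR 4.0.16 (filterByExpr, TMM, quasi-likelihood) in R 4.3.3, with DESeq2 1.42.0 and limma 3.58.1 as alternatives. The standard error of an edgeR log2 fold change was taken from its F statistic. The scripts were tested on simulated data of this design, on which false calls exceeded the nominal rate in DESeq2 and not in edgeR. Of 100 changes of 4-fold put into those data, edgeR recovered 43 and DESeq2 68. Of 100 changes of 2-fold, edgeR recovered 3 and DESeq2 11. edgeR thus missed most changes of either size. CPM uses each library's unique total over the genes that passed the filter, times its TMM factor. Floors are 3 read pairs (6 counts) per library on the same scale, covering counting error only. The members and the gene lists were chosen with earlier results of these data known. The genes named are all 8 members, the pathway genes with separated groups, and the 3 nearest profiles; further pathway genes and markers are given as examples, and some list genes are not reported here. Replicate numbers follow deposition order and pair nothing. Alternatives covered scaling, filters, the tool, the L code, gene length and each library left out.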

Additional observations from a re-analysis of the deposited data

Results flagged for a closer look

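Control replicate 2 stood apart from the other controls for Ebi3, at 21.3 CPM against 9.48, 10.97 and 10.4 CPM. Its gap to the nearest control was 0.873 of the group's range, above Dixon's critical value for 4 samples. This was the only flag among 15 control groups examined, and such a test is expected to flag some groups by chance. The same library had no read of Il12b or Il23a. Without it, the edgeR log2 fold change of Ebi3 was 0.89 ± 0.36 (adjusted p = 0.646), against 0.54 ± 0.39 with all libraries.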

How the results depend on the processing

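The number of genes that edgeR called over the whole table, 4, was 42 with no filter on low counts, 405 in DESeq2, 2 in limma-voom, 0 with the L code as a covariate, 0 in L5 libraries only, 21 in L4 libraries only and 10 with a gene length correction. Leaving out 1 library in edgeR gave 0 to 3, and DESeq2 without Dicer1-deleted replicate 2 gave 338. Members called went from 0 to 1 with no filter (Il12rb1), 2 in DESeq2 and 1 in DESeq2 without that library. Pathway genes called went from 0 to 5 in DESeq2 and 2 in DESeq2 without that library. Il12rb1 passed the threshold with no filter (5.16), in DESeq2 (5.21) and in DESeq2 without Dicer1-deleted replicate 2 (4.10), and Il27 in DESeq2 (2.37). On leaving out each library in turn, the log2 fold change was 4.05 to 5.75 for Il12rb1 (edgeR adjusted p from 0.132 to 0.297), 1.78 to 2.67 for Il27 (0.158 to 0.416) and -0.34 to 1.02 for Il12b, which changed sign. In L4 libraries only, with 1 control, Il23a reversed to 6.55 and Ebi3 to -0.26, and Il12b was at 8.28 ± 3.28. That control is replicate 2, which had no read of Il23a or Il12b and the highest Ebi3 of the controls. These L4 values rest on that library as the only control. Why it differed from the other controls was not tested. The L4-only, gene length and DESeq2 leave-out settings were chosen after seeing the data. No paired analysis was possible because the groups share no replicate numbers in the labels. Counts are few for Il12a (at most 22 reads in a library), Il23a (at most 44) and Il12rb1 in the controls (at most 14).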
